A study of Mus musculus with 6 samples.

Results

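Aminoacyl-tRNA synthetases join each amino acid to its tRNA and so supply the ribosome with charged tRNAs. Protein synthesis in the cytosol and in mitochondria draws on largely separate sets of these enzymes, all encoded in the nucleus, and the mitochondrial ones are mostly named with a final 2. Muscle holds a large protein mass that is constantly renewed, and several cytosolic members are known targets of ATF4, the transcription factor of the amino acid response. The members were chosen by name, as 38 genes that encode cytosolic synthetases, mitochondrial synthetases and the scaffold proteins Aimp1 and Aimp2. Every probe set with exactly 1 gene symbol among them was taken, which gave 75 of the 45101 probe sets of the array and 37 of 18194 genes. They comprise 40 probe sets of 19 cytosolic enzymes, 32 of 16 mitochondrial enzymes and 3 of the 2 scaffold proteins. Dars, the aspartyl enzyme, was not analysed here. Mars, the methionyl enzyme, is written Mars1 in the annotation.

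The samples were muscle RNA of female C57BL/6 mice whose ovaries had been removed at an age of 4 months, 3 with a placebo pellet (OVX) and 3 with a pellet that released 0.18 mg of 17β-estradiol over 60 days (OVX + E2). Both groups lack ovaries, E2 was given back to the second by the pellet, and no group with intact ovaries is included. Each sample was hybridized to 1 Affymetrix mouse array. Nothing in the sources used here says that the arrays hold different animals, so the p-values reflect the spread from array to array and nothing more, and that spread may be technical. Values are log2 expression in arbitrary units, and a difference is OVX + E2 minus OVX, tested with limma over all probe sets. A gene is said to have fallen or risen where its unadjusted p was 0.05 or less, which is where the 95% interval of its difference leaves out 0.

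The labels name left ventricle as the tissue, while the paper names soleus. Of the markers of skeletal muscle 10 of 10 lay in the top 5% of all probe sets, and of the markers of heart 0 of 6 did. Both arrays numbered 3 stood apart in genes of fast fibres. The mean of 5 such genes (Myh4, Actn3, Pvalb, Mybpc2 and Myoz1) was 12.19, 12.42 and 13.42 with placebo and 12.51, 11.64 and 9.23 with E2. Gapdh, read as a sign of RNA integrity, had a 3′ signal 0.38 above its 5′ signal on OVX + E2 replicate 3, and the other 5 arrays ran from −0.068 to 0.16. The mean of 4 fibroblast markers ran from 9.39 to 9.82 with placebo and from 9.22 to 9.49 with E2, and 2 of the 4 fell. For fat cell, leukocyte, endothelial, erythroid and Schwann cell markers the means of the 2 groups overlapped. Their part in the results was not tested. In whole muscle, fewer cells of a type and less RNA per cell cannot be told apart. No probe set of the array passed an adjusted p of 0.05 (limma with Benjamini-Hochberg adjustment, smallest 0.308), while 6216 had an unadjusted p of 0.05 or less. For a single probe set an exact permutation test of 3 arrays against 3 allows no two-sided p below 0.1.

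The promoters of several cytosolic enzymes hold the sequence that ATF4 is known to bind together with C/EBP factors. They are shown because none of the mitochondrial members searched holds it. The window searched ran from 250 bases before to 50 after the start site, in RefSeq on assembly GRCm38.p6, and it was at hand for 28 of the 37 members. The letters searched were TGATGNAA on both strands. They were in the windows of 5 of 12 cytosolic genes, 0 of 14 mitochondrial genes and 0 of 2 scaffold genes, against 3.97% of all 32851 windows. The 5 genes are Aars, Gars, Iars, Tars and Yars (the alanyl, glycyl, isoleucyl, threonyl and tyrosyl enzymes). The stretches shown run from 150 bases before to 20 after the start site, 5′ to 3′ along the gene, with the matching letters in capitals, and Aars holds 2 matches. They lie at chr8:111033692-111033861 (plus strand, Aars), chr6:55037851-55038020 (plus strand, Gars), chr13:49681980-49682149 (plus strand, Iars), chr15:11399639-11399808 (minus strand, Tars) and chr4:129189753-129189922 (plus strand, Yars).
Aars: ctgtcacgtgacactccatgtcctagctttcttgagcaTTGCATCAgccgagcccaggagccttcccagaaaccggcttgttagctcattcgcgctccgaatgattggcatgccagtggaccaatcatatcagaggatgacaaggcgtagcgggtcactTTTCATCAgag
Gars: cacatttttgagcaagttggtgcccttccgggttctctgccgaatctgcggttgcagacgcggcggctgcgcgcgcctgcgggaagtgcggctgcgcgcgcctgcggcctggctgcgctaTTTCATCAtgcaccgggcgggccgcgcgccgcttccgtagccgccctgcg
Iars: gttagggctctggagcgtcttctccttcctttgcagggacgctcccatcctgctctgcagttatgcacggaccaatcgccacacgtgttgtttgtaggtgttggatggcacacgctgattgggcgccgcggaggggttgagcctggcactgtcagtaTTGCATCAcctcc
Tars: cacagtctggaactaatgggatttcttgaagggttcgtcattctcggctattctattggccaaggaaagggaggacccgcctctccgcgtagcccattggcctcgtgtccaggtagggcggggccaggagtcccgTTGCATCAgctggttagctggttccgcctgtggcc
Yars: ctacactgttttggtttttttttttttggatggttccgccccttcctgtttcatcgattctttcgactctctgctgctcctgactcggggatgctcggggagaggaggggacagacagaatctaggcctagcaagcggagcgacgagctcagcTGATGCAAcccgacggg

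The palindromic estrogen response element, searched without a mismatch, was in 0 of 30 windows of the members and in 0.07% of all windows. The shorter AGGTCA was in 3 of the 30, those of Eprs, Fars2 and Aimp2, against 16.3% of all windows, and in none of the windows with an ATF4 match. A match describes letters in the window and is no measured binding site.

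Cytosolic synthetases were mostly lower with E2, and mitochondrial synthetases lay near 0. Each gene was represented by 1 probe set, that whose 6 values had the largest interquartile range. Of 19 cytosolic genes 17 were below 0 and 13 fell, with a median of −0.18 on the log2 scale. Of all genes 54.0% were below 0, 13.0% fell and 6.01% rose, with a median of −0.010. Of 16 mitochondrial genes 11 were below 0, with a median of −0.037, and 1 fell. Both scaffold proteins fell. The arrays of the 2 groups did not overlap in 13 cytosolic, 3 mitochondrial and 2 scaffold genes, with OVX above, against 13.6% of all genes. Such a lack of overlap was more common at high levels, with 1568 of all 4298 genes with a mean above 8. In that range it held for 12 of 16 cytosolic, 2 of 4 mitochondrial and both scaffold genes. Over probe sets 21 of 75 members fell, against 9.43% of all probe sets, and 2 rose, against 4.35%. At an unadjusted p of 0.001 or less, the threshold of the study, Rars alone passed, against 0.213% of all probe sets, and Aars lay just outside it. No member passed after adjustment over all probe sets (smallest adjusted p from limma, 0.308).

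**Figure D1:**
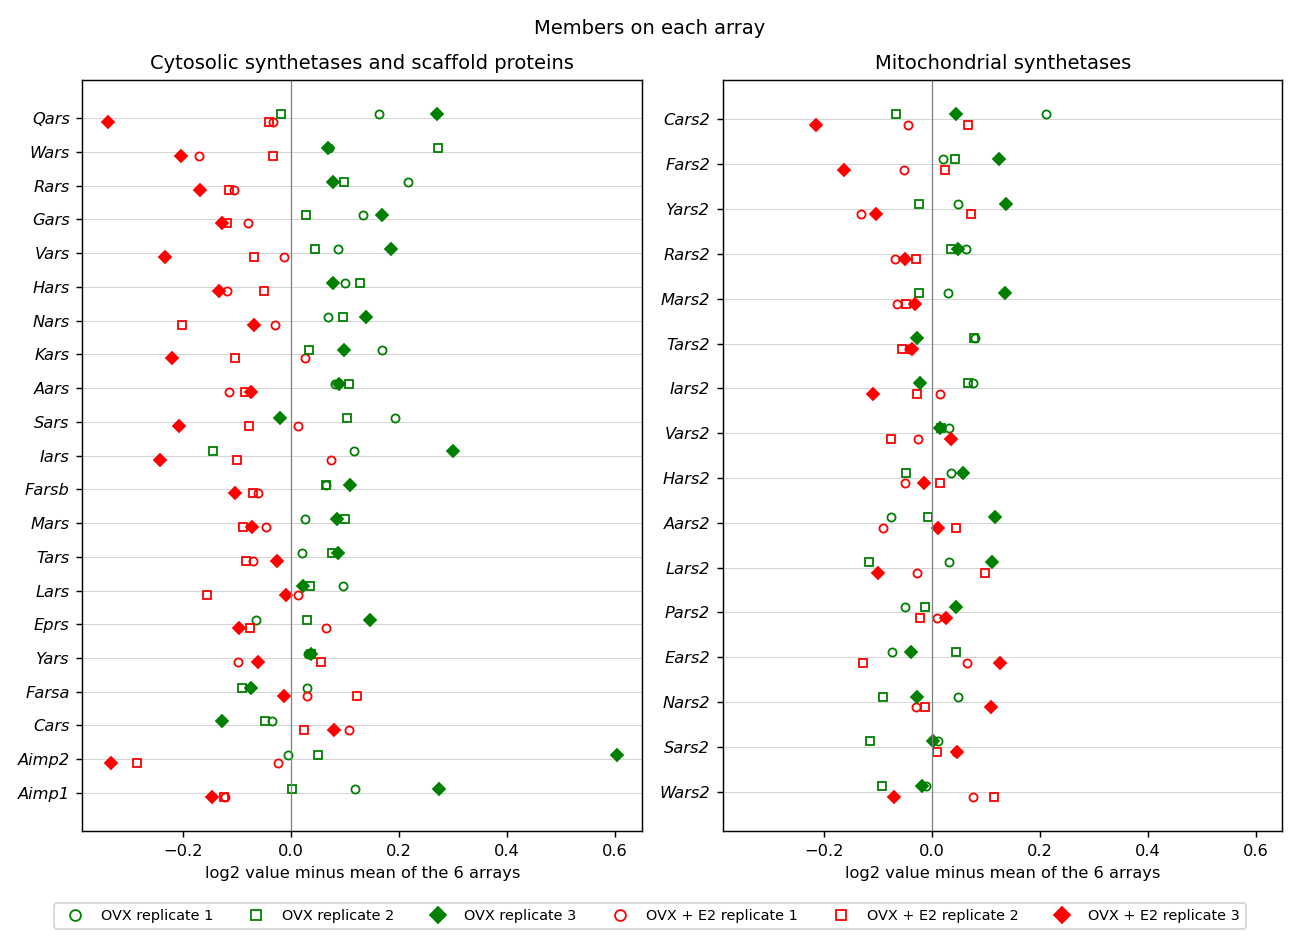
Each symbol is 1 array, placed by the log2 value of a member minus that member's mean over the 6 arrays (horizontal axis). OVX is green and OVX + E2 red, circles, squares and filled diamonds stand for replicates 1, 2 and 3, and each gene has 1 probe set. All green symbols lie to the right of all red ones in 13 of 19 cytosolic genes, both scaffold genes and 3 of 16 mitochondrial genes. The same holds for 13.6% of all genes, and for 1568 of the 4298 genes with a mean above 8.

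Brighter probe sets were lower with E2 over the whole array, and the cytosolic enzymes are bright. The median level was 8.99 for the cytosolic genes and 7.57 for the mitochondrial ones, and 16 of 19 and 4 of 16 had a mean above 8. Of all genes with a mean above 8, 91.4% were below 0 and 37.6% fell, with a median of −0.15. In that range 16 of 16 cytosolic genes were below 0 and 12 fell, with a median of −0.18. Of the 4 mitochondrial genes in it 4 were below 0 and 1 fell, with a median of −0.093. Between levels of 9 and 10, 15 cytosolic probe sets had a median of −0.18 and all probe sets −0.15. Between 8 and 9 the median was −0.16 over 12 cytosolic probe sets, −0.088 over 5 mitochondrial ones and −0.12 over all. Between 7 and 8 it was −0.16 over 5 cytosolic probe sets, −0.019 over 15 mitochondrial ones and −0.019 over all. All 21 member probe sets above 0 had a mean of 8 or less.

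**Figure D2:**
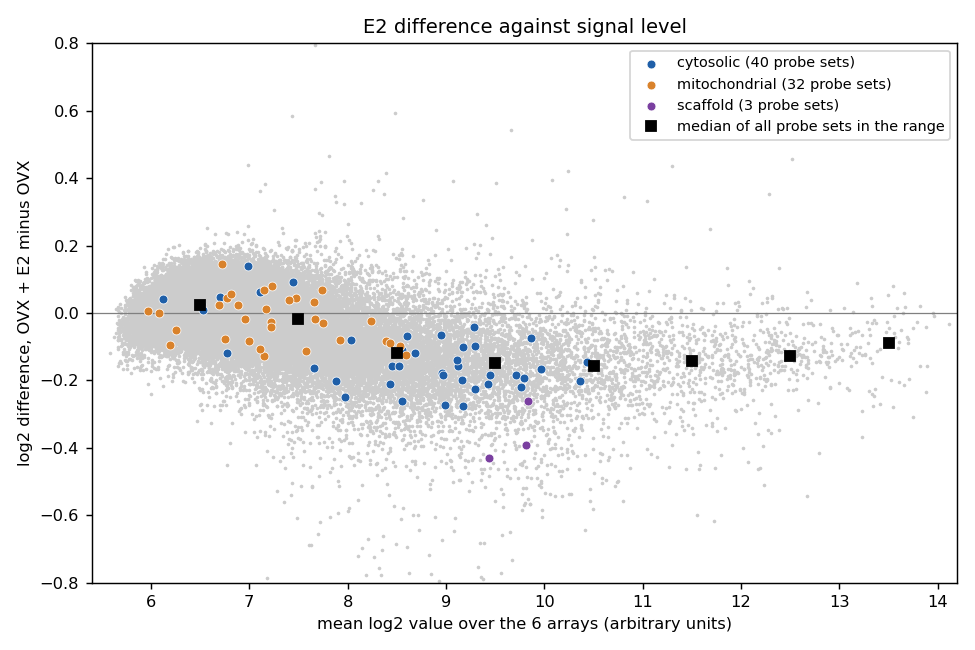
Difference in log2 value (OVX + E2 minus OVX, vertical axis) by mean log2 level over the 6 arrays (horizontal axis). Grey points are all probe sets within 0.8 of 0, coloured points are members, and black squares mark the median of all probe sets in each range of 1 log2 unit. The member probe sets with a mean above 8 are all below 0, as are 90.4% of all probe sets there, and the mitochondrial ones lie mostly at lower levels around 0.

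Normalizations that remove the dependence on level took most of this difference away. With cyclic loess applied to the deposited values, the median was −0.050 for the cytosolic genes, 0.013 for the mitochondrial genes and −0.026 for all genes with a mean above 8. Of the 19 cytosolic genes 14 were then below 0, against 50.8% of all genes. Of the 16 with a mean above 8, 13 were below 0, against 2606 of all 4298 genes in that range. Rars and Hars still fell, against 5.06% of all genes, and Cars rose, against 4.6%. With quantile normalization the medians were −0.024, 0.025 and −0.0077, in the same order. Rars and Hars fell there too, against 4.12% of all genes, and Cars and Farsa rose, against 5.4%. Over probe sets 2 members fell with cyclic loess, against 4.02% of all, 2 with quantile normalization, against 3.33%, and 15 without both arrays numbered 3, against 7.54%. The hybridization controls, spiked in equal amounts, had lower values in OVX + E2 for 18 of 18 probe sets. Their median difference was −0.11 as deposited and 0.022 with cyclic loess. Their part in the results was not tested.

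**Figure D3:**
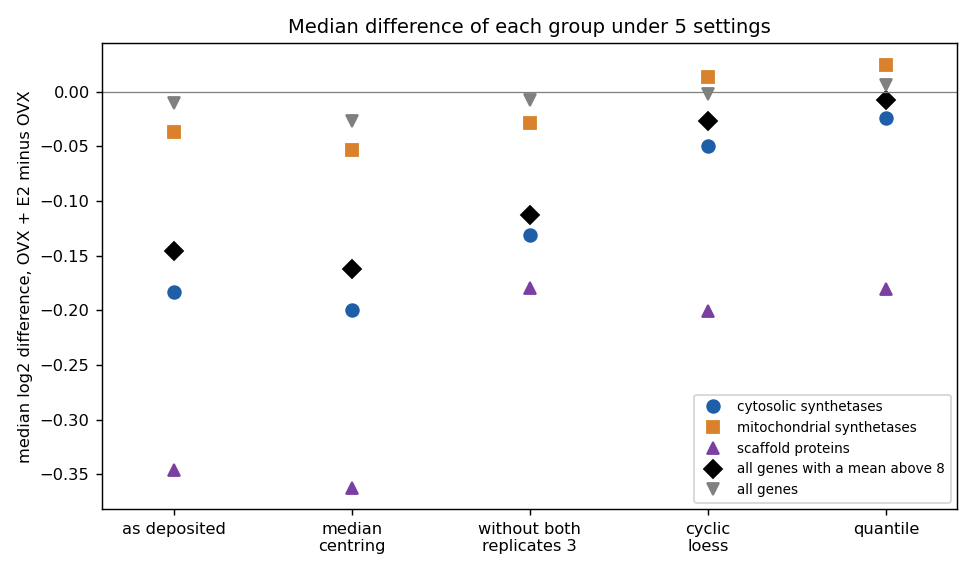
Median log2 difference (OVX + E2 minus OVX, vertical axis) of cytosolic synthetases (19 genes), mitochondrial synthetases (16), scaffold proteins (2), all genes with a mean above 8 (4298) and all genes (18194), for 5 settings along the horizontal axis. The cytosolic median goes from −0.18 as deposited to −0.050 with cyclic loess and −0.024 with quantile normalization, and that of all genes with a mean above 8 from −0.15 to −0.026 and −0.0077.

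Rars and Hars were the cytosolic genes that fell as deposited and under both normalizations. Of all genes 5.06% fell with cyclic loess and 4.12% with quantile normalization. Rars, the arginyl enzyme of the multisynthetase complex, measured 8.77, 8.65 and 8.63 with placebo and 8.44, 8.43 and 8.38 with E2. Each OVX array stood above each OVX + E2 array. The log2 difference was −0.26 (standard error 0.048, 95% interval −0.37 to −0.15, fold 0.835, n = 3 each). It was −0.15 with cyclic loess, −0.14 with quantile normalization and −0.27 without both arrays numbered 3. Hars, the histidyl enzyme, measured 7.98, 8.01 and 7.96 with placebo and 7.76, 7.83 and 7.74 with E2, again without overlap. Its difference was −0.20 (standard error 0.04, 95% interval −0.30 to −0.11), and −0.14 with cyclic loess. A second, brighter probe set of Hars (mean 8.03) had overlapping groups and a difference of −0.079 (95% interval −0.25 to 0.093). With cyclic loess it had −0.0032 and with quantile normalization 0.012, so the fall of Hars depends on the probe set read.

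The other members of the multisynthetase complex, in which several cytosolic enzymes are held together, were below 0 as well. Of 9 measured members, Aimp1 and Aimp2 included, 9 were below 0 and 6 fell, with a median of −0.20. Eef1e1, a further scaffold, is not among the 9, and its difference was −0.13 (95% interval −0.29 to 0.021). All 9 had a mean above 8, where 91.4% of all genes were below 0 and 37.6% fell. With cyclic loess 7 were below 0, with a median of −0.063, and so were 2606 of all 4298 genes with a mean above 8. Qars, the glutaminyl enzyme, measured 9.34, 9.16 and 9.45 with placebo and 9.14, 9.14 and 8.84 with E2. Kars, the lysyl enzyme, which also serves mitochondria, measured 9.33, 9.20 and 9.26 against 9.19, 9.06 and 8.94. Mars, the methionyl enzyme, measured 9.14, 9.21 and 9.19 against 9.06, 9.02 and 9.04. The groups did not overlap in these 3, although the gap was small in each. The difference was −0.28 for Qars (standard error 0.1), −0.20 for Kars (standard error 0.069) and −0.14 for Mars (standard error 0.038). Without both arrays numbered 3 that of Qars was −0.11. Of 4 probe sets of Qars 3 were below 0 and 2 fell. The remaining 3 enzymes of the complex had intervals that include 0. The difference was −0.073 for Eprs, which joins the glutamyl and prolyl activities in 1 protein (95% interval −0.23 to 0.087). It was −0.18 for Iars (−0.47 to 0.11) and −0.10 for Lars, the leucyl enzyme (−0.23 to 0.026). A second probe set of Iars fell, with a difference of −0.18 (−0.35 to −0.019). With cyclic loess Eprs and Lars were above 0, at 0.075 and 0.035.

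Aimp2 had the largest difference of the members, and it rested in part on the arrays numbered 3. Aimp2, a central scaffold of the complex, measured 9.43, 9.48 and 10.04 with placebo and 9.41, 9.15 and 9.10 with E2. OVX replicate 3 stood well above the other arrays, and the lowest OVX array was only slightly above the highest OVX + E2 array. The difference was −0.43 (standard error 0.17, 95% interval −0.82 to −0.040). Without both arrays numbered 3 it was −0.18 and no longer passed at 0.05. Its second probe set measured 9.79, 9.81 and 10.44 against 9.75, 9.69 and 9.42, with OVX replicate 3 again at the top, and had a difference of −0.39 (−0.82 to 0.032). Aimp1, a scaffold that is also the precursor of a cytokine, measured 9.96, 9.84 and 10.11 with placebo and 9.72, 9.71 and 9.69 with E2. Its groups did not overlap, and its difference was −0.26 (standard error 0.068, 95% interval −0.42 to −0.10). It was −0.18 without both arrays numbered 3, where it still fell, and −0.11 with cyclic loess, where it did not pass at 0.05. Both scaffolds had their top value on OVX replicate 3 and their bottom value on OVX + E2 replicate 3, as the mean of the fast-fibre genes had. Of the 19 cytosolic genes 6 had that order (31.6%), and so did 26.6% of all probe sets with a mean above 8.

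Among the cytosolic enzymes outside the complex, Wars, Gars, Vars, Nars and Aars fell. Wars, the tryptophanyl enzyme and a known interferon target, measured 9.06, 9.26 and 9.06 with placebo and 8.82, 8.96 and 8.79 with E2, without overlap. Its difference was −0.27 (standard error 0.072, 95% interval −0.44 to −0.10), and of its 4 probe sets 4 were below 0 and 3 fell. The representing probe set has the suffix x, used where probes may also bind other transcripts. Gars, the glycyl enzyme of both compartments, measured 9.90, 9.79 and 9.93 against 9.68, 9.65 and 9.64. Vars, the valyl enzyme, measured 8.52, 8.47 and 8.62 against 8.42, 8.36 and 8.20. Both were free of overlap, with a wider gap in Gars. The difference was −0.22 for Gars (standard error 0.047) and −0.21 for Vars (standard error 0.067). Aars, the alanyl enzyme, measured 9.79, 9.82 and 9.80 against 9.60, 9.62 and 9.64, with replicates close together in both groups. Its difference was −0.18 (standard error 0.035, 95% interval −0.27 to −0.10), and −0.037 with cyclic loess, where it did not pass at 0.05. Nars, the asparaginyl enzyme, measured 10.43, 10.46 and 10.51 against 10.34, 10.16 and 10.30 and had no overlap. It fell with 2 of 2 probe sets, whose differences were −0.20 and −0.19.

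Farsb, Sars and Tars fell as well. Farsb, the beta subunit of the phenylalanyl enzyme, measured 9.19, 9.19 and 9.23 with placebo and 9.06, 9.05 and 9.02 with E2. Of the 4 probe sets of Farsb 3 were below 0 and only this 1 fell. Sars, the seryl enzyme, measured 9.16, 9.07 and 8.95 against 8.98, 8.89 and 8.76. Tars, the threonyl enzyme, measured 8.70, 8.76 and 8.77 against 8.61, 8.60 and 8.66. The groups overlapped in Sars and did not in Farsb and Tars. The difference was −0.16 for Farsb (standard error 0.036), −0.18 for Sars (standard error 0.074) and −0.12 for Tars (standard error 0.039). With cyclic loess these were −0.023, −0.054 and −0.0020. With quantile normalization Mars and Tars were above 0, at 0.016 and 0.018. Yars, the tyrosyl enzyme, had a difference of −0.069 (95% interval −0.18 to 0.043). Of the 5 enzymes with the ATF4 letters shown above 3 fell (Aars, Gars and Tars), with a median of −0.18. Of the 7 others with a window 5 fell, with a median of −0.16. Of all genes 13.0% fell. Of all genes with a mean above 8, where all of these except Farsa lie, 37.6% fell.

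Cars and Farsa had probe sets on both sides of 0. The dimmer probe set of Cars, the cysteinyl enzyme, measured 6.95, 6.94 and 6.86 with placebo and 7.09, 7.01 and 7.07 with E2, and rose by 0.14 (standard error 0.044, 95% interval 0.038 to 0.24). The brighter one measured 8.58, 8.50 and 8.52 against 8.47, 8.43 and 8.23, with a difference of −0.16 (−0.32 to 0.0015). Neither pair of groups overlapped, so the direction of Cars depends on the probe set read. Of the 4 probe sets of Farsa, the alpha subunit of the phenylalanyl enzyme, the brightest had a difference of −0.16 (−0.34 to 0.019), and the other 3 lay between 0.0081 and 0.091.

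Rars2 was the only mitochondrial gene that fell. This arginyl enzyme measured 8.60, 8.57 and 8.58 with placebo and 8.46, 8.50 and 8.48 with E2, without overlap. Its difference was −0.098 (standard error 0.035, 95% interval −0.18 to −0.016), and 0.012 with cyclic loess. Tars2, the threonyl enzyme, measured 8.51, 8.51 and 8.40 against 8.39, 8.37 and 8.39. Mars2, the methionyl enzyme, measured 6.22, 6.17 and 6.33 against 6.13, 6.14 and 6.16. Both had groups that just failed to overlap, with differences of −0.088 (−0.19 to 0.012) and −0.095 (−0.21 to 0.020). Fars2, the phenylalanyl enzyme, measured 8.61, 8.64 and 8.72 against 8.54, 8.62 and 8.43. Iars2, the isoleucyl enzyme, measured 8.0, 7.99 and 7.90 against 7.94, 7.90 and 7.82. The groups overlapped in both, with differences of −0.13 (−0.26 to 0.0094) and −0.081 (−0.20 to 0.035). Cars2, the cysteinyl enzyme, measured 7.36, 7.08 and 7.19 against 7.11, 7.22 and 6.94. Yars2, the tyrosyl enzyme, measured 7.16, 7.09 and 7.25 against 6.98, 7.18 and 7.01. Here too the groups overlapped, with differences of −0.13 (−0.34 to 0.090) and −0.11 (−0.27 to 0.052).

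Of the mitochondrial genes 5 of 16 lay above 0. Sars2, the seryl enzyme, measured 7.75, 7.62 and 7.74 with placebo and 7.78, 7.75 and 7.79 with E2, with a difference of 0.067 (95% interval −0.041 to 0.18). With cyclic loess it was 0.12 and with quantile normalization 0.13, and it rose under both. Wars2, the tryptophanyl enzyme, measured 7.22, 7.14 and 7.21 against 7.31, 7.35 and 7.16, with a difference of 0.081 (−0.054 to 0.22) and overlapping groups. Ears2, which charges both glutamate and glutamine tRNAs of mitochondria, had 4 probe sets, of which 1 rose. That one measured 6.59, 6.64 and 6.71 against 6.78, 6.76 and 6.83, without overlap, and rose by 0.15 (standard error 0.045). The probe set that represents Ears2 measured 6.70, 6.81 and 6.73 against 6.83, 6.64 and 6.89, and had a difference of 0.044 (−0.12 to 0.21). The other mitochondrial genes (Aars2, Hars2, Lars2, Nars2, Pars2 and Vars2) had differences between −0.043 and 0.046.

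Cytosolic and mitochondrial enzymes whose names differ only by the final 2 formed 13 pairs, and in 11 of the 13 the cytosolic difference was the lower. The cytosolic member was also the brighter in 12 of the 13. Enzymes without such a pair of names were measured too but are left out of these counts. They are the phenylalanyl enzymes (Farsa 0.091, Farsb −0.16 and Fars2 −0.13), and Eprs (−0.073) with Ears2 (0.044) and the prolyl enzyme Pars2 (0.011). Among these 11 pairs the widest gaps were in the tryptophanyl pair (−0.27 for Wars and 0.081 for Wars2), the seryl pair (−0.18 and 0.067) and the asparaginyl pair (−0.20 and 0.046). The arginyl pair had nearly the same level, 8.55 for Rars and 8.53 for Rars2, and differences of −0.26 and −0.098. The histidyl pair was also close in level, 7.88 for Hars and 7.75 for Hars2, with −0.20 and −0.031 (95% interval of Hars2 −0.13 to 0.071). In the cysteinyl pair (0.14 and −0.13) and the tyrosyl pair (−0.069 and −0.11) the order was turned, and the gap of the cysteinyl pair was second only to that of the tryptophanyl pair. Both exceptions depend on the probe set read. With the brightest probe set of each gene the cytosolic difference was the lower in both. The values were then −0.16 for Cars and −0.11 for Cars2, and −0.069 for Yars and 0.067 for Yars2. With cyclic loess the cytosolic difference was the lower in 9 of 13 pairs. Whether the cytosolic and the mitochondrial genes differ in response was not tested.

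**Figure D4:**
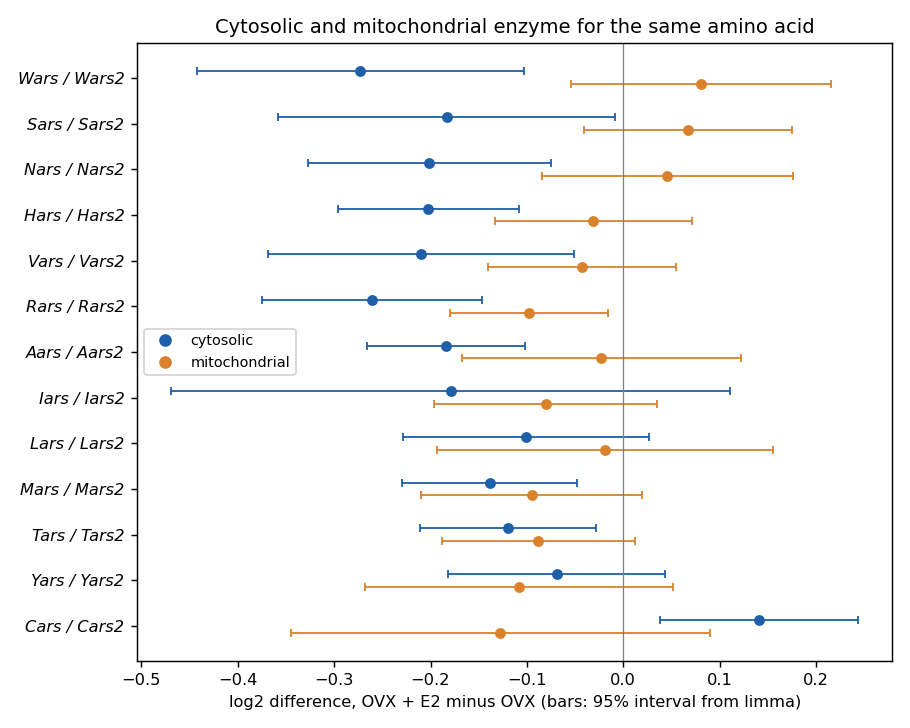
Log2 difference (OVX + E2 minus OVX, horizontal axis) with its 95% interval from limma, for the cytosolic (blue) and the mitochondrial (orange) enzyme of 13 amino acids, 1 probe set per gene, ordered by the gap between them. The blue point lies to the left of the orange one in 11 of 13 pairs, all except Yars and Cars.

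By structure the synthetases fall into a pair of unrelated classes, each with cytosolic and mitochondrial enzymes. Eprs, which holds the glutamyl and prolyl activities in 1 protein, was counted in neither. Of 18 class I genes 15 were below 0, 6 fell and 1 rose, with a median of −0.100. Of 16 class II genes 12 were below 0 and 8 fell, with a median of −0.12. Of all genes 54.0% were below 0, 13.0% fell and 6.01% rose, and 9 of the class I and 10 of the class II genes had a mean above 8, where 37.6% of all genes fell.

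Partners that receive or mend charged tRNAs were mostly below 0 too. Of 15 measured genes 13 were below 0 and 3 fell, with a median of −0.065. Of all genes 54.0% were below 0 and 13.0% fell, and 7 of the 15 had a mean above 8, where 91.4% of all genes were below 0 and 37.6% fell. Tufm, the mitochondrial elongation factor that takes up charged tRNAs, measured 9.05, 9.12 and 9.06 with placebo and 8.90, 8.95 and 8.78 with E2. Its difference was −0.20 (standard error 0.053, 95% interval −0.32 to −0.074). Eef1a2, the elongation factor form of muscle and neurons, had −0.22 (−0.42 to −0.027). Gatc, a subunit of the mitochondrial glutamyl-tRNA amidotransferase, had −0.18 (−0.35 to −0.014). In each of these 3 the groups did not overlap, and with cyclic loess none passed at 0.05. Tsfm and Dtd1, which were above 0, had 0.042 (−0.084 to 0.17) and 0.0039 (−0.12 to 0.13). Eef1e1, a further scaffold of the multisynthetase complex named after its values were seen, had −0.13 (−0.29 to 0.021).

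Genes of the amino acid response lay on both sides of 0. Of 25 measured genes 14 were below 0 and 11 above, with a median of −0.0053, and 7 fell and 1 rose. Of all genes 13.0% fell and 6.01% rose, and 11 of the 25 had a mean above 8, where 37.6% of all genes fell. Vldlr, a lipoprotein receptor, measured 10.78, 10.92 and 11.00 with placebo and 10.62, 10.51 and 10.36 with E2, without overlap. Its difference was −0.40 (standard error 0.082, 95% interval −0.60 to −0.21). Cebpb, a C/EBP factor, had −0.17 (−0.26 to −0.070), and Shmt2, a mitochondrial enzyme of serine metabolism, had −0.16 (−0.27 to −0.050). With cyclic loess 5 of the 25 genes fell, against 5.06% of all genes, and with quantile normalization 5, against 4.12%. The 5 with cyclic loess were Vldlr (−0.26), Shmt2 (−0.19), Psph (−0.20), Aldh18a1 (−0.17) and Ddit4 (−0.83), and Cebpb did not pass at 0.05. As deposited, Psph had −0.19 (−0.34 to −0.036) and Aldh18a1 had −0.14 (−0.26 to −0.024), and both fell. Fgf21, a secreted metabolic hormone, rose by 0.12 (0.0011 to 0.24). Cth and Gcn1 had 0.16 (−0.0046 to 0.32) and 0.13 (−0.033 to 0.29). With cyclic loess Fgf21 had 0.098 and did not pass at 0.05, while Cth rose by 0.21. Atf4 itself measured 8.99, 9.30 and 8.96 against 9.11, 9.15 and 9.24. Its groups overlapped, and its difference was 0.084 (−0.13 to 0.30). Some known ATF4 targets had intervals that include 0, with −0.048 for Asns (−0.25 to 0.16), 0.094 for Ddit3 (−0.30 to 0.48) and 0.073 for Trib3 (−0.085 to 0.23). They do not stand for the whole list, of which 7 genes fell and 1 rose. The mean was 6.28 for Asns, 6.62 for Trib3 and 8.89 for Ddit3, against a median level of 6.92 over all probe sets. Differences of dim probe sets are compressed, so Asns and Trib3 cannot show whether these targets were unchanged. Atf4, these targets, Psph, Aldh18a1 and Ddit4 were named after their values were seen.

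Amino acid transporters had a median of −0.010. Of 18 measured genes 10 were below 0 and 1 fell, against 54.0% and 13.0% of all genes. Slc3a2, the heavy chain of the transporters of large neutral amino acids, measured 8.60, 8.43 and 8.62 with placebo and 8.41, 8.29 and 8.33 with E2. The groups were apart by little, and the difference was −0.21 (standard error 0.063, 95% interval −0.36 to −0.061). With cyclic loess it was −0.10 and did not pass at 0.05. Slc6a9, a glycine transporter named after its values were seen, rose there, by 0.090, and had 0.0091 (−0.088 to 0.11) as deposited. The intervals of Slc38a3 (−0.20), Slc7a2 (−0.26), Slc7a11 (0.075), Slc7a1 (0.077) and Slc1a4 (0.058) include 0.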

How the data were processed

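RNA of 6 samples, 3 OVX and 3 OVX + E2 by the treatment in their labels, was labelled and hybridized to Affymetrix Mouse Genome arrays. The deposited values are log2 expression, made by the authors with background correction, variance stabilization across arrays and median polish over probes in R 2.14.2, which compresses differences of dim probe sets. Scans and detection calls were not used here, and precision is limited by the 6 arrays. The platform annotation gave 1 gene symbol for 34958 probe sets, several for 932 and none for 9211. Differences were tested over all probe sets with limma 3.58.1 (R 4.3.3), two-sided and without covariate, and the script was checked on simulated arrays. The threshold of the study was an unadjusted p of 0.001, and counts at 0.05 were added. Values on every array are given for members at 0.05, for the 8 mitochondrial or scaffold members next in p, and for members with a probe set at 0.05 on the opposite side of 0. Of other lists, up to 3 genes in each direction were named by p. Members, lists and these rules were chosen with earlier results of these data known. Alternatives were quantile normalization, cyclic loess (3 iterations), median centring, a filter on level, an intensity trend, a block for the replicate number, a plain unpaired test, array weights, the brightest probe set per gene, and leaving out arrays. Promoter windows came from RefSeq.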

Additional observations from a re-analysis of the deposited data

How the results depend on the processing

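Of all probe sets, 96 had an unadjusted p of 0.001 or less as deposited. The paper reports more probe sets at this threshold, and the reason for the difference was not tested. The count found here was 31 with quantile normalization, 31 with cyclic loess, 164 with median centring, 140 with a plain unpaired test and 131 with array weights. It was 30 among probe sets brighter than the median, 39 with an intensity trend and 21 with the replicate number as a block. It was 37 without both arrays numbered 3, and 19 (without OVX + E2 replicate 3) to 76 without single arrays. Of the synthetase and scaffold probe sets, 21 fell at 0.05, against 9.43% of all probe sets. The count was higher with median centring (29) and array weights (23). With median centring 5574 of all 45101 probe sets fell, against 4255 as deposited. The count was 2 with quantile normalization (3.33% of all) and 2 with cyclic loess (4.02%). It was 13 with an intensity trend, 13 with a plain unpaired test, 18 with the block and 18 with the filter on level. Without both arrays numbered 3 it was 15 (7.54% of all). Without single arrays it was 12 (without OVX + E2 replicate 3) to 24. For the other settings no share of all probe sets is given here, so their counts cannot be read as more or less change of the members. The cytosolic median of −0.18 was −0.024 with quantile normalization, −0.050 with cyclic loess, −0.13 without both arrays numbered 3, and −0.19 to −0.14 without single arrays. The mitochondrial median of −0.037 turned to 0.025 with quantile normalization and 0.013 with cyclic loess, and was −0.065 (without OVX replicate 2) to −0.028 without single arrays. The cause of these changes was not tested. Samples with the same replicate number did not deviate together (correlations −0.13, −0.20 and −0.34 over all probe sets), so the block rests on a shared number only. Signs turned with quantile normalization for Mars (0.016), Tars (0.018), Rars2 (0.028), Fars2 (0.0028) and Tars2 (0.036), with cyclic loess for Rars2 (0.012) and Tars2 (0.016), with the brightest probe set for Cars (−0.16), Yars2 (0.067) and Ears2 (−0.027), and for Ears2 without both arrays numbered 3 (−0.016) and without single arrays (−0.0082 to 0.12). Of the other values of named members under the alternatives, 320 kept direction and side of 0.05, 70 lost the p of 0.05 or less and 12 gained it.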

Other observations

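Some genes of the amino acid response varied more between arrays of a group than the synthetases did, and are given as values chosen after they were seen. Ddit4, an inhibitor of mTORC1, measured 8.54, 9.50 and 9.82 with placebo and 8.70, 7.93 and 8.37 with E2, with a log2 difference of −0.95 (standard error 0.33, 95% interval from limma −1.74 to −0.16) and overlapping groups. Gpt2, an alanine transaminase, measured 8.0, 8.21 and 9.47 against 8.31, 7.70 and 7.27. Its top and bottom values lay on the arrays numbered 3, as those of the fast-fibre genes did, and its difference was −0.80 with all arrays and −0.10 without those. Chac1, an enzyme of glutathione breakdown, measured 8.69, 8.48 and 9.71 against 9.43, 8.12 and 8.44, with a difference of −0.30 (−1.26 to 0.67).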
